A study of Saccharomyces cerevisiae with 72 samples.

Results

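The genes described here encode enzymes that make amino acids in budding yeast, *Saccharomyces cerevisiae*, together with *GCN4*, the transcriptional activator of many of them. They were chosen by name from their annotated pathways with no cutoff on a measured value, but with earlier results of these data known. The list holds 8 genes of arginine, 6 of histidine, 7 of lysine, 9 of the branched-chain amino acids, 9 of the aromatic amino acids, 5 of threonine, 4 of serine, 2 of glutamate and 3 of proline synthesis, and *GCN4*. Genes of sulfur amino acids and common marker genes were left out. This gave 54 of the 6660 genes in the deposited table, and all 54 were among the 6496 genes with a value in every condition.

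RNA was sequenced from diploids of the S288c background, wild type or *kar4*Δ/Δ, at 0, 2, 4, 6, 8 and 12 h after transfer to sporulation medium. Kar4p is a protein required for meiotic mRNA methylation, and the time course asks how its loss changes meiotic transcript levels and how far induced regulators restore them. Each genotype was followed in 3 promoter backgrounds: the endogenous promoters, Pzev-*IME1* alone, and Pzev-*IME1* with added Pzev-*RIM4*, which gives 36 conditions and 72 libraries. A Pzev promoter is switched on with β-estradiol through the artificial activator Z3EV, whose gene is driven by the *ACT1* promoter at the *leu2* locus, and *IME1* and *RIM4* encode a transcription factor and an RNA-binding protein that act early in meiosis.

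Several features of the strains and medium touch amino acid synthesis. The strain table lists *leu2* and *ura3* alleles throughout, homozygous *his3* in the strains with endogenous promoters, heterozygous *his3* in those with Pzev-*IME1*, and heterozygous *lys2* in both genotypes with endogenous promoters and in wild type with Pzev-*IME1*, and heterozygous *met15* in the strains with endogenous promoters and the mutant with Pzev-*IME1*. It also lists Z3EV in the strains with endogenous promoters. The Pzev alleles of *IME1* and *RIM4* are heterozygous, and Z3EV is heterozygous except in the strains with both Pzev promoters, where it is homozygous. The *kar4* alleles carry *KANMX* with endogenous promoters, *KANMX* and *URA3* with Pzev-*IME1*, and *LEU2* and *URA3* with both Pzev promoters, so the last mutant has a functional leucine marker that its wild type lacks. Which of these strains gave the libraries is not stated, so marker, genotype and promoter cannot be told apart where they vary together. Cells passed from rich glucose medium through rich acetate medium into potassium acetate supplemented with histidine, uracil and leucine. For overexpression, β-estradiol was added once the cultures were in this last medium. Changes from 0 h in the Pzev strains therefore combine the medium and the induction, which cannot be told apart. Whether the strains with endogenous promoters received β-estradiol is not stated.

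Every value is the authors' log2 fold change relative to the 0 h column of wild type with endogenous promoters, with the 2 biological replicates of a condition already combined. The deposited values carry no replicate spread, p-value or read depth, so no difference below was tested, and a gene is said to rise or fall only where it changed at least 2-fold, that is by 1 on the log2 scale. Differences between conditions were obtained by subtraction, in which the reference cancels. Beside the count of genes in a comparison stands the share of all 6496 genes that passed 2-fold in the same direction. The standard deviation over all genes was between 0.43 and 0.72 in the other columns with endogenous promoters, between 0.77 and 1.17 with Pzev-*IME1*, and between 0.70 and 2.11 with both Pzev promoters. The last of these was wild type at 12 h, and the part of these spreads in the counts was not tested beyond the rescaling given where it matters. *KAR4* lay between -8.33 and -3.96 in the mutant columns, except in the column labelled *kar4*Δ/Δ with endogenous promoters at 0 h, where it was -0.55. *NDT80*, the activator of middle sporulation genes, reached 6.04 at 12 h in wild type with both Pzev promoters, 2.12 in wild type with Pzev-*IME1*, 1.27 in *kar4*Δ/Δ with both, and at most 0.43 with endogenous promoters. At 0 h *IME1* and *RIM4* were already at 3.03 and 3.21 in wild type with both Pzev promoters, against 1.41 and 0.23 in the mutant.

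Yeast builds most amino acids from intermediates of glycolysis and the citric acid cycle, with nitrogen supplied through glutamate. When amino acids run short, the kinase Gcn2p modifies translation factor eIF2, translation of *GCN4* mRNA goes up, and Gcn4p binds the core sequence TGACTC upstream of genes in many pathways at once, a response called general amino acid control. Gcn4p is therefore set largely by translation and protein turnover, and its mRNA need not follow its activity. Some pathways have their own activators as well, such as Leu3p for leucine and other branched-chain genes and Lys14p for lysine genes. Sporulation takes place in starvation for nitrogen, and diploids entering meiosis have to rebuild protein from their own stores.

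The upstream sequences show which of these sites the genes carry. They were read from the R64 genome (sacCer3), and the annotated start is that of the coding sequence. The core TGACTC, on either strand, was present between 250 bases before and 50 bases after the start in 30 of the 54 genes (55.6%) and in 479 of 5880 protein-coding genes (8.15%). In the 500 bases before the start it was present in 39 of the 54 (72.2%) and in 756 of the 5880 (12.9%). The Leu3p sequence, a pair of CCGG blocks with any 2 bases between them, was found in the shorter window of *LEU1* and *BAT1*, 2 of 54 against 7 of 5880 (0.119%). The Lys14p sequence TCCNNNGGA was found in *LYS1*, *LYS9*, *LYS12*, *LEU9* and *GLT1*, 5 of 54 against 203 of 5880 (3.45%). No match of a motif overlapped a match of another in these genes. A match is a string of letters and not evidence of binding.

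Shown here, 5′ to 3′ on the coding strand of each gene and with matches in capitals, are genes whose levels are followed below. *HIS4*, *ARG4*, *ARG7* and *ARG1* have Gcn4p cores, *LEU1* and *BAT1* have the Leu3p sequence, *LYS9* has 2 Lys14p sequences, and *SER33* has a core on the opposite strand. Those of *HIS4* (chrIII:68512-68603, minus strand, cores starting 255, 243 and 199 bases before the start) and *ARG1* (chrXV:218851-218957, plus strand, 345 and 274 bases before) come from the longer window. The others are *ARG4* (chrVIII:141561-141596, minus), *ARG7* (chrXIII:396511-396546, minus), *LEU1* (chrVII:478845-478884, minus), *BAT1* (chrVIII:517346-517409, plus), *LYS9* (chrXIV:715528-715628, minus) and *SER33* (chrIX:222624-222659, minus).
HIS4: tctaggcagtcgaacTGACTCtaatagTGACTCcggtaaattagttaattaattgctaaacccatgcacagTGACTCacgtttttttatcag
ARG1: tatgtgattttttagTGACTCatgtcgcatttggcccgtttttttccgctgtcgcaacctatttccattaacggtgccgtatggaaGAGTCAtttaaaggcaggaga
ARG4: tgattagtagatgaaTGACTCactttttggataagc
ARG7: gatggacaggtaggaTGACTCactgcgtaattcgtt
LEU1: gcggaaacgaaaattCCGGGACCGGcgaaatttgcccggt
BAT1: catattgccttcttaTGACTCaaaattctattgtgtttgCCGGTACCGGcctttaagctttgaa
LYS9: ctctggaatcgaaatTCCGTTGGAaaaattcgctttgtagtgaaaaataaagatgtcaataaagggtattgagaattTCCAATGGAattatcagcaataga
SER33: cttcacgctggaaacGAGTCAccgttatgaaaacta

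**Figure D1:**
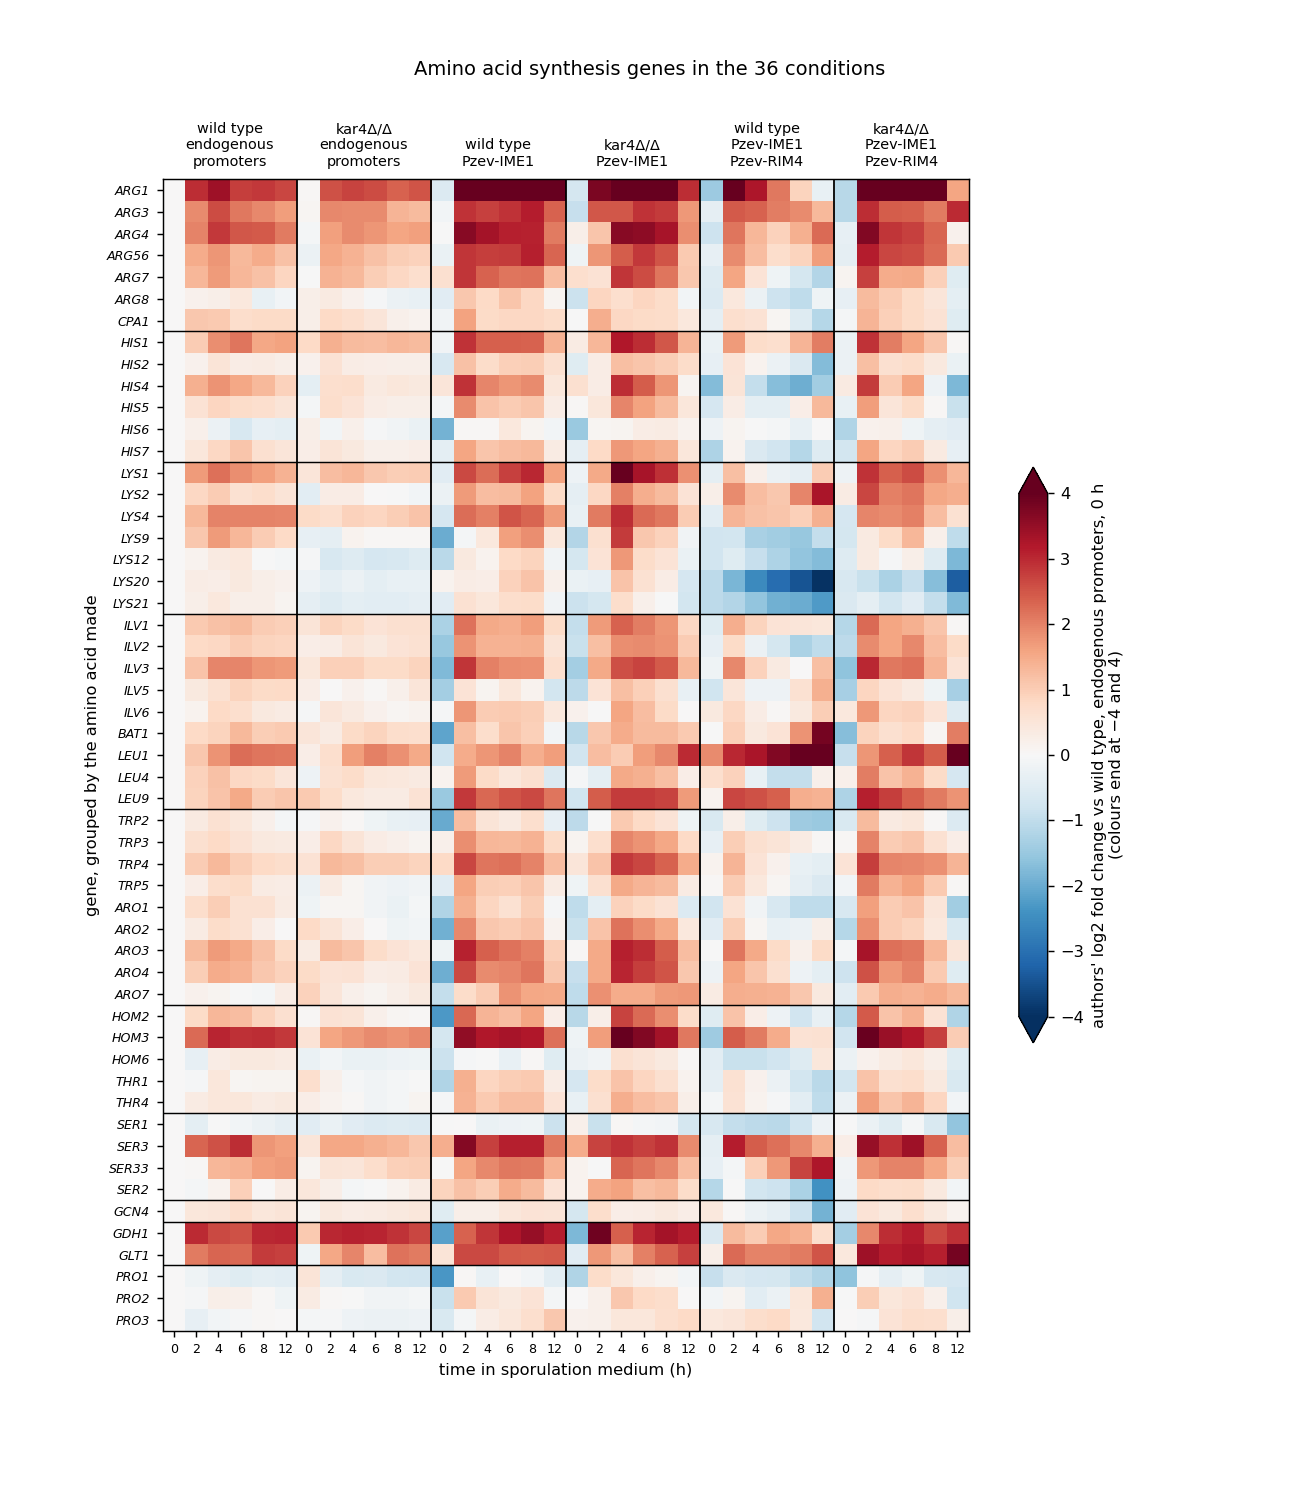
Authors' log2 fold change relative to the reference column (colour, ending at -4 and 4) of all but 1 of the 54 genes (rows, grouped by the amino acid made) in the 36 conditions (columns, by strain and by hours in sporulation medium). In wild type with Pzev-*IME1* the column at 2 h is above that at 0 h in every row shown, *LYS20* and *LYS21* turn blue with both Pzev promoters, and *LEU1* is at 6.50 and 5.89 at 12 h there.

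Transcripts of amino acid synthesis went up within 2 h of transfer to sporulation medium, which in the Pzev strains came together with β-estradiol. Of the wild type strains, that with Pzev-*IME1* changed most: 48 of the 54 genes rose at least 2-fold between 0 and 2 h (23.6% of all genes), none fell, all 54 were above their 0 h value, and the median difference was 2.19. The corresponding count in *kar4*Δ/Δ was 35 (23.4% of all genes), with a median of 1.35. With both Pzev promoters 32 rose in wild type (11.7% of all genes) and 45 in *kar4*Δ/Δ (16.8%), and the medians were 1.18 and 2.26. Endogenous promoters gave smaller shares, 21 genes in wild type (3.34% of all genes) and 11 in the mutant from its column labelled 0 h (3.40%). After quantile normalization the counts were 48 and 29 with Pzev-*IME1*, 30 and 45 with both promoters and 31 and 19 with endogenous promoters, so the order of the strains depended on the scaling. The reference column, 0 for every gene, was left at 0. The 31 thus sets a rescaled 2 h column against an unscaled start and is not like the other counts. These counts begin from unlike 0 h levels, since 17 of the 54 genes were at least 2-fold lower at 0 h in wild type with Pzev-*IME1* than with endogenous promoters (16.7% of all genes), *PRO1*, *HOM2*, *GDH1* and *BAT1* being the lowest at -2.31, -2.29, -2.17 and -2.11.

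The same 8 genes rose at least 2-fold by 2 h in all 6 strains (0.693% of all genes did), among them *ARG1*, *ARG3*, *ARG56*, *HOM3*, *SER3*, *GDH1* and *GLT1*. *HOM3* encodes aspartate kinase, the entry to threonine synthesis, and *GDH1* and *GLT1* enzymes that form glutamate. In wild type with Pzev-*IME1* alone, *SER1*, *LYS20*, *SER2* and *PRO3* had the smallest differences, 0.03, 0.16, 0.28 and 0.51. This did not hold for *SER2* elsewhere. It was already at 0.90 at 0 h in that strain. Between 0 and 2 h it went from 0.13 to 1.49 in the mutant with Pzev-*IME1*. In wild type with both Pzev promoters it went from -1.13 to -0.02.

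**Figure D2:**
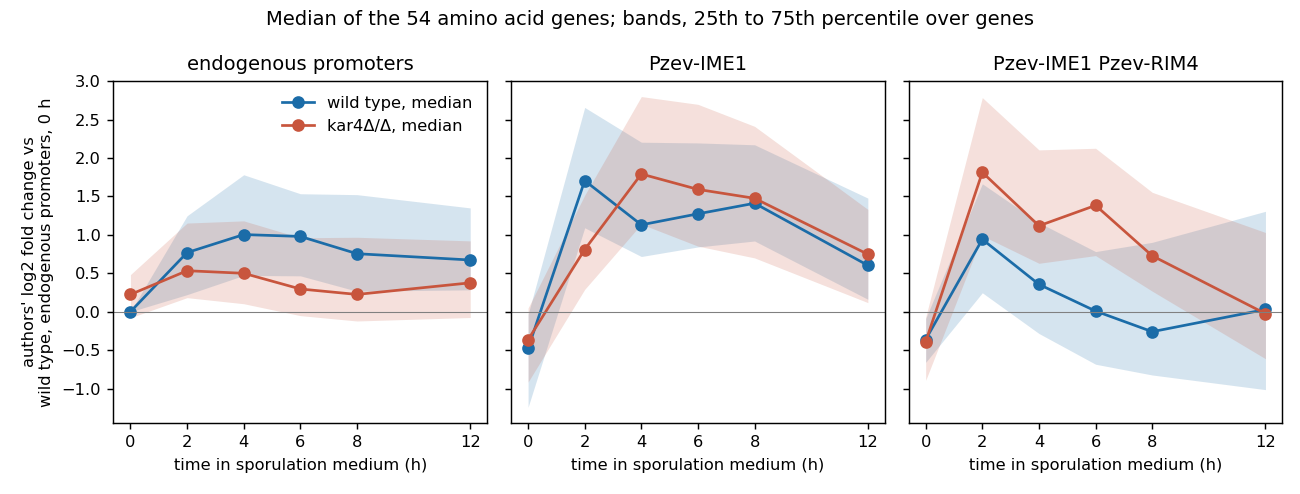
Median over the 54 genes (points and lines) and interquartile range over genes (bands) of the authors' log2 fold change against time in sporulation medium, for wild type (blue) and *kar4*Δ/Δ (orange) in each promoter background. The 2 genotypes cross between 2 and 4 h with Pzev-*IME1*, where the medians are 1.71 and 0.81 at 2 h and 1.13 and 1.79 at 4 h, and with both Pzev promoters the mutant median is above that of wild type from 2 to 8 h.

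*GCN4* mRNA (YEL009C, chromosome V, 138918 to 139763) had a range of 2.59 over the 36 conditions, among the narrower ones of the 54 genes. Several genes were narrower still, among them *HOM6*, *SER1*, *PRO3* and *ARG8* with 1.53, 1.78, 1.84 and 2.27. Its level was between 0.46 and 0.68 from 2 to 12 h in wild type with endogenous promoters and between 0.23 and 0.55 with Pzev-*IME1*. In the latter strain *GCN4* went from -0.49 at 0 h to 0.24 at 2 h, while 48 of the 54 genes rose at least 2-fold. From 0 to 12 h it was 1.01 higher with Pzev-*IME1* in wild type. The mutant with Pzev-*IME1* had a *GCN4* rise of 1.40 from 0 to 2 h, beside a median of 1.35 over the 54 genes. In wild type with both Pzev promoters it declined, and was 0.41, 0.06, -0.24, -0.37, -0.83 and -1.89 at 0, 2, 4, 6, 8 and 12 h. The mutant with both promoters stayed between 0.13 and 0.67 from 2 h on. Of the 30 genes with a Gcn4p core in the shorter window, 27 rose by 2 h in wild type with Pzev-*IME1*, and of the 24 without it 21 did. With the longer window it was 36 of 39 and 12 of 15. Among the other protein-coding genes 23.6% with the core in the shorter window rose and 22.8% without it. From 0 to 4 h in wild type with endogenous promoters 13 of the 30 members with the core and 14 of the 24 without it rose, but with the longer window 22 of 39 and 5 of 15 did, and among the other genes 7.25% and 3.72%. Whether genes with and without the core differ thus varied with the window and the comparison, and it was not tested.

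*ARG1* had the widest range of the arginine genes, 7.28, next to that of *LEU1*, 7.42, among all 54. *ARG1* (YOL058W, chromosome XV, 219211 to 220473), which encodes argininosuccinate synthetase, was 0, 2.94, 3.38, 2.77, 2.84 and 2.68 over the 6 times in wild type with endogenous promoters, and 0.04, 2.54, 2.72, 2.60, 2.35 and 2.51 in *kar4*Δ/Δ. The Pzev-*IME1* wild type had -0.56, 5.59, 5.45, 5.58, 5.83 and 5.01, and its mutant -0.69, 3.76, 4.34, 5.03, 5.11 and 2.94. With both Pzev promoters it was -1.45, 3.99, 3.24, 2.12, 0.90 and -0.28 in wild type and -1.12, 5.42, 4.98, 4.99, 4.57 and 1.58 in the mutant. *ARG1* ended below the reference only in wild type with both promoters. From 2 to 12 h it differed by -0.26, -0.58 and -4.27 in the wild type strains in this order, and by -1.55, -3.52 and -3.27 after quantile normalization. *ARG3*, ornithine carbamoyltransferase, reached 3.15 in wild type with Pzev-*IME1* at 8 h, and *ARG4*, argininosuccinate lyase, 3.70 in the mutant with both promoters at 2 h. *ARG8*, acetylornithine aminotransferase, stayed between -1.01 and 1.25 in all 36 conditions.

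The 2 glutamate genes rose by 2 h in all 6 strains, but *GDH1* stayed lower in wild type with both Pzev promoters. *GDH1* (YOR375C), the main NADP-dependent glutamate dehydrogenase of growing cells, was between 2.53 and 3.06 from 2 to 12 h in wild type with endogenous promoters and between 2.36 and 3.47 with Pzev-*IME1*, but between 0.69 and 1.56 with both Pzev promoters. In *kar4*Δ/Δ with both promoters it was 1.93 to 3.13. *GLT1*, glutamate synthase, was between 1.98 and 2.52 from 2 h in wild type with both promoters and 3.10 to 3.82 in the mutant. Of the 3 proline genes none rose with endogenous promoters. *PRO1*, glutamate 5-kinase, was between -0.48 and -0.18 there in wild type from 2 h on, and *PRO3* stayed between -0.75 and 1.09 in all conditions.

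In histidine synthesis *HIS4* (YCL030C, chromosome III, 65934 to 68333), a single protein for 3 steps with cores at 3 places upstream, had the widest range, 4.89. It was 2.89 at 2 h in wild type with Pzev-*IME1* and 0.46 at 12 h. With both Pzev promoters it was -1.74, 0.52, -0.97, -1.69, -1.94 and -1.39 in wild type and 0.37, 2.79, 1.02, 1.59, -0.19 and -1.79 in the mutant, so that a brief peak in the mutant had no counterpart of that height in wild type. *HIS1*, the enzyme of the first step, reached 3.19 in the mutant with Pzev-*IME1* at 4 h, while *HIS6* lay between -0.64 and 0.42 from 2 h on in all 6 strains.

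Among the aromatic genes *ARO4* had the widest range, 4.99, and *ARO3* and *ARO4*, the isozymes of the first step, rose by 2 h in the 4 Pzev strains. *HOM3* had the widest range of the threonine genes, 5.38, and was at 3.04 with endogenous promoters at 4 h and 3.97 in the mutant with Pzev-*IME1* at 4 h, whereas *HOM6*, homoserine dehydrogenase, stayed between -0.88 and 0.65. In branched-chain synthesis *ILV3*, dihydroxyacid dehydratase, was -1.78 at 0 h and 2.85 at 2 h in the wild type carrying Pzev-*IME1*. The courses of *LEU1* and *BAT1* are given below.

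By 12 h fewer genes were at least 2-fold above 0 h than at 2 h. With endogenous promoters, however, none of the 54 fell 2-fold between 2 and 12 h (2.43% of all genes in wild type and 1.40% in the mutant). The median differences from 2 to 12 h were -0.08 and -0.19, and 10 and 9 genes fell after quantile normalization. In wild type with endogenous promoters 17 of the 54 genes were still at least 2-fold above 0 h and none below it (6.33% and 3.96% of all genes), led by *GDH1* at 3.06, *HOM3* at 2.82 and *GLT1* at 2.74. The lowest were *PRO1*, *HIS6* and *SER1* at -0.43, -0.40 and -0.37. In the mutant, from the column labelled 0 h, 9 were higher and 1 lower (5.22% and 5.37% of all genes), with *ARG1* at 2.48, *GLT1* at 2.26 and *ARG4* at 1.72 highest and *PRO1* at -1.26 the gene that fell. Against wild type at 0 h instead, the same 12 h values gave no gene at least 2-fold lower.

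With Pzev-*IME1*, 31 genes of the wild type were higher at 12 h than at the start and none lower (25.2% and 14.5% of all genes), with *ARG1* at 5.57, *GDH1* at 5.31 and *LEU9* at 3.60 highest. In *kar4*Δ/Δ it was 27 and none (19.2% and 9.93%), with *GDH1* at 4.92, *LEU1* at 3.75 and *ARG1* at 3.64. *SER1*, *LEU4*, *SER2* and *HIS4* were the lowest in wild type, at -0.84, -0.74, -0.36 and -0.03. Between 2 and 12 h 28 of the 54 genes fell in this strain (5.08% of all genes), and the median difference was -1.06. *HIS4*, *LEU4* and *ILV3* fell most, by 2.44, 2.29 and 2.18. The 8 aromatic genes that fell were all but *ARO7*, and 7 of the 9 branched-chain genes fell. In *kar4*Δ/Δ with Pzev-*IME1* 2 of the 54 genes fell between 2 and 12 h and 2 rose (9.84% and 6.34% of all genes). The median there was -0.22, and 6 fell after quantile normalization.

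With endogenous promoters most of the genes were below wild type in the mutant from 4 h on, the majority within 2-fold. At 4 h 51 of the 54 genes were below wild type, with a median difference of -0.46 where the median over all genes was -0.02. Only 4 passed 2-fold lower (1.82% of all genes) and none passed 2-fold higher (0.831%). *LYS9* was the lowest, 0.14 in *kar4*Δ/Δ against 1.72 in wild type, a difference of -1.58, followed by *HOM3* at -1.29, *HIS4* at -1.08 and *LYS4* at -1.04. The 3 genes above wild type were *HIS6* at 0.47, *GDH1* at 0.44 and *ARO7* at 0.11.

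At 6 h the median difference was -0.63, the furthest from 0 with endogenous promoters, and 11 genes passed 2-fold lower (2.88% of all genes). They included *SER3* at -1.54, *LYS9* at -1.26, *ILV3* at -1.21 and *HIS4* at -1.18, and no arginine gene. At 12 h 49 of the 54 genes were still below wild type, but by a median of -0.34 and with none past 2-fold. These columns are the narrowest of the table. Quantile normalization gives every column except the reference the same spread, and after it the counts of lower genes became 10 at 4 h and 18 at 6 h. The counts of higher genes became 1 and 2.

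**Figure D3:**
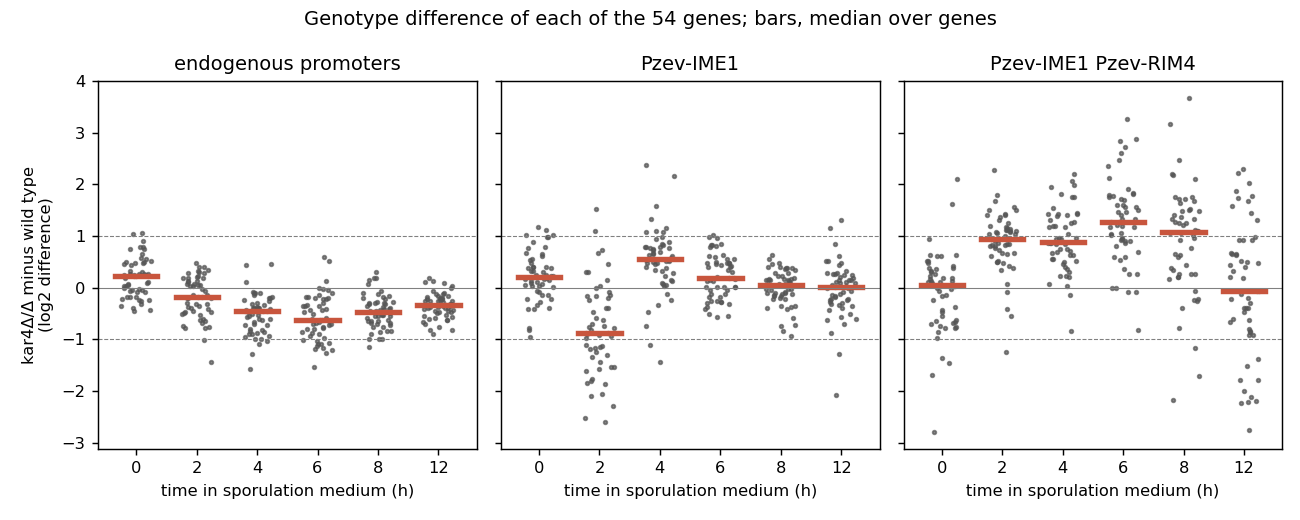
Difference of *kar4*Δ/Δ minus wild type (log2, vertical axis) for each of the 54 genes (points, spread sideways for legibility) by hours in sporulation medium in the 3 promoter backgrounds; orange bars are medians over genes and dashed lines mark 2-fold. The 2 h medians are -0.88 in the Pzev-*IME1* panel and 0.95 in the panel of both promoters, whose points at 12 h spread from -2.75 to 2.31.

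With *IME1* induced, the median level was highest at 2 h in wild type and at 4 h in the mutant, at 1.71 and 1.79. At 2 h the mutant was at least 2-fold lower in 22 of the 54 genes (7.80% of all genes), and the median difference was -0.88. At 4 h the sign had turned: 47 genes were above wild type, the median was 0.55, and 8 were at least 2-fold higher (4.09% of all genes). In all, 39 genes were below wild type at 2 h and above it at 4 h, among them 20 of the 22, as were 16.6% of all genes. From 2 h onward, 35 of the 54 genes were at their highest at 2 h in wild type and 38 at 4 h in the mutant. Peak times were not counted over all genes, so whether this shift is particular to the 54 was not tested.

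*HIS4* and *ARG4* show this order in time. *HIS4* was 0.49, 2.89, 1.96, 1.78, 1.88 and 0.46 in wild type, compared with 0.65, 0.29, 2.95, 2.42, 1.77 and 0.11 in *kar4*Δ/Δ. *ARG4* was 0.00, 3.64, 3.32, 3.10, 3.09 and 2.07 against 0.25, 1.11, 3.65, 3.58, 3.28 and 1.85. In both, the mutant at 2 h was near its 0 h level or little above it, with differences of -2.61 and -2.53, and by 4 h it matched or passed wild type. *ARG7* and *LEU4* differed by -2.30 and -2.11 at 2 h. Among the groups, 6 of 9 aromatic, 5 of 8 arginine and 3 of 6 histidine genes were at least 2-fold lower then. *GDH1* and *ARO7* went the other way, at 1.52 and 1.10.

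Lysine genes were prominent among those higher in the mutant at 4 h. *LYS9*, saccharopine reductase, was 2.78 against 0.41 in wild type, *LYS1*, the enzyme of the last step, 4.39 against 2.23, and *LYS12*, homoisocitrate dehydrogenase, 1.72 against 0.15. *GLT1* and *ARG1* were lower in the mutant, with differences of -1.43 and -1.10. At 6 and 8 h the medians were 0.18 and 0.05, and at 12 h 2 genes were higher and 2 lower (2.31% and 5.37% of all genes), namely *LEU1* at 1.30, *BAT1* at 1.16, *ARG1* at -2.07 and *ARG56* at -1.28. After these the furthest genes were *LEU4* at 0.85 and *LYS20* at -0.88. After quantile normalization neither *ARG1* nor *ARG56* passed 2-fold lower.

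In the strains with both promoters the genotype difference at 2 h had the opposite sign. In *kar4*Δ/Δ 26 of the 54 genes were then at least 2-fold above wild type (5.85% of all genes) and 1, *LEU1*, was lower, with a median difference of 0.95. The count was 22 at 4 h (7.28%), 35 at 6 h (10.7%) and 30 at 8 h (12.8%), and 14 genes were at least 2-fold higher at all 4 times (2.82% of all genes). The medians were 0.88, 1.27 and 1.08. After quantile normalization the count at 8 h was 17, and *LEU1* at 2 h was at -0.86, within 2-fold. Of the genes at least 2-fold lower in the mutant at 2 h with Pzev-*IME1*, 19 were at least 2-fold higher at 2 h with both promoters (2.03% of all genes passed both).

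*HIS4* was again at the extreme, 2.79 in *kar4*Δ/Δ and 0.52 in wild type at 2 h, a difference of 2.28, and 3.28 at 6 h. It already differed by 2.11 at 0 h, and rose from 0 to 2 h by 2.42 in the mutant and 2.25 in wild type. *SER33* differed by 1.79, *LYS1* by 1.67 and *ARG4* by 1.56 at 2 h. At 8 h *ARG1* differed by 3.68. At that time *LEU1* at -2.17, *BAT1* at -1.71 and *SER33* at -1.17 were at least 2-fold lower in the mutant (17.6% of all genes). In the deposited values wild type was then raising these genes. After quantile normalization their differences were 0.00, -0.78 and -0.02, so none of them stayed 2-fold lower. The strain table lists a leucine marker in this mutant, and whether it has a part in these values was not tested.

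In the wild type with both promoters the early rise did not last. Its median level was 0.94 at 2 h, 0.36 at 4 h, 0.01 at 6 h, -0.26 at 8 h and 0.03 at 12 h, while in the mutant the medians were 1.81, 1.12, 1.38, 0.73 and -0.03. At 8 h 38 of the 54 genes were at least 2-fold lower than in wild type with Pzev-*IME1* alone (17.3% of all genes), with a median of -1.58. All 8 arginine genes, 8 of 9 aromatic genes and 6 of 7 lysine genes were among them. *ARG1* was -4.93, *LYS20* -4.59 and *HIS4* -3.82 in this comparison, and *LEU1*, at 3.13, was the gene that passed 2-fold upward.

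Between 2 and 12 h 28 genes fell in wild type with both promoters (20.2% of all genes) and 7 rose (23.8%). *ARG1* and *ARG7* were among those that fell, by 4.27 and 2.76. The 7 that rose were *LEU1* by 3.48, *SER33* by 3.30, *BAT1* by 2.88, *LYS2* by 1.36, *HOM6* by 1.33, *PRO2* by 1.29 and *HIS5* by 1.00. After quantile normalization 1 of the 54 rose and 20 fell, and *LEU1* was at -0.041. In the mutant 41 fell between 2 and 12 h (10.3% of all genes), a later and larger drop from its higher peak, with *HIS4* at -4.58, *ARG1* at -3.84 and *HOM2* at -3.67. These differences share the 2 h column with those from 0 to 2 h.

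Measured from 0 h instead, 20 genes were higher at 12 h and 6 lower in wild type with both promoters (26.6% and 21.3% of all genes), and 17 higher and 5 lower in *kar4*Δ/Δ (20.6% and 18.5%). In wild type *LEU1* was 4.62 (-0.53 after quantile normalization), *BAT1* 3.86 and *SER33* 3.57 higher, and *LYS20*, *GCN4* and *HIS2* fell by 2.90, 2.30 and 1.38. In the mutant *LEU1* was 6.81, *GDH1* 4.27 and *ARG3* 4.09 higher, and *LYS20*, *HIS4* and *SER1* fell by 2.66, 2.16 and 1.56. The 0 h column of wild type with both promoters already held induced *IME1* and *RIM4*, and *LEU1* was at 1.88 in it.

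At 12 h the genotypes with both promoters had parted in both directions. In *kar4*Δ/Δ 10 genes were higher and 10 lower than in wild type (17.9% and 25.2% of all genes), near the share of all genes upward and below it downward. *SER2*, phosphoserine phosphatase, was highest at 2.31, then *GDH1* at 2.22, *GCN4* at 2.03 and *ARG1* at 1.87. *ILV5*, acetohydroxyacid reductoisomerase, was lowest at -2.75, then *SER33* at -2.24, *PRO2* at -2.22 and *HIS5* at -2.20. Of the 30 genes higher at 8 h, 8 were still at least 2-fold higher (5.79% of all genes were at both times) and 22 were within 2-fold. After quantile normalization 9 were higher and 3 lower.

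**Figure D4:**
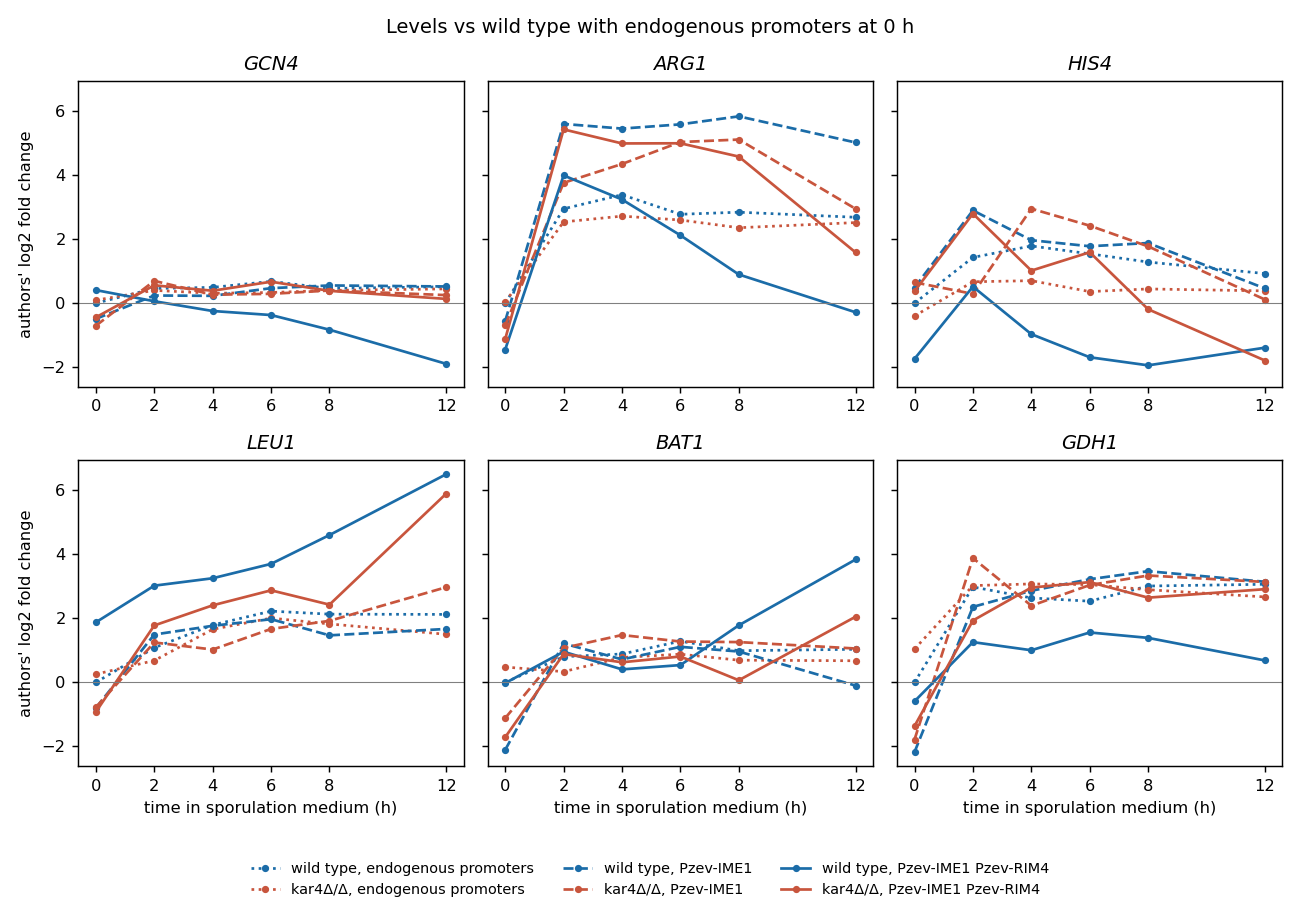
Authors' log2 fold change of *GCN4*, *ARG1*, *HIS4*, *LEU1*, *BAT1* and *GDH1* by hours in sporulation medium, for wild type (blue) and *kar4*Δ/Δ (orange) with endogenous promoters (dotted), Pzev-*IME1* (dashed) and both Pzev promoters (solid). *GCN4* ends at -1.89 and *LEU1* at 6.50 in wild type with both promoters, while *ARG1* ends at -0.28 there and at 5.01 with Pzev-*IME1*.

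From 2 to 12 h in wild type with both promoters 7 of the 54 genes climbed and 28 fell, where 23.8% and 20.2% of all genes did. After quantile normalization 1 rose, and *LEU1* did not, so this climb depended on the scaling. *LEU1* (YGL009C, chromosome VII, 476313 to 478652), isopropylmalate isomerase, was 1.88, 3.02, 3.25, 3.70, 4.60 and 6.50 in wild type with both promoters and -0.92, 1.78, 2.41, 2.87, 2.43 and 5.89 in *kar4*Δ/Δ. It was at most 2.22 with endogenous promoters and, with Pzev-*IME1*, 1.67 in wild type and 2.97 in the mutant at 12 h. *BAT1* (YHR208W), the mitochondrial branched-chain aminotransferase, was -0.02, 0.96, 0.41, 0.54, 1.78 and 3.84 in wild type with both promoters. In the mutant it was at 0.07 at 8 h and 2.05 at 12 h. These are the 2 genes with the Leu3p sequence in the shorter window. In the longer window *ILV2*, *ILV5* and *GDH1* have it too, 5 of 54 against 15 of 5880 genes, and in wild type with both promoters they were at -1.03, 1.43 and 0.69 at 12 h.

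*LYS2*, α-aminoadipate reductase and a common marker locus, was highest at 12 h in wild type with both promoters, at 3.26, and at 2 h in the mutant, at 2.66, which was at 1.47 by 12 h. It was at most 1.02 with endogenous promoters and, with Pzev-*IME1*, at most 1.71 in wild type and 2.03 in the mutant. The strain table lists a heterozygous *lys2* in all of these but the mutant with Pzev-*IME1*. The part of this allele was not tested. Neighbouring genes of *LEU1*, *BAT1*, *SER33* and *LYS2* had mixed levels. Their change in time, and the neighbours of *HOM6*, *PRO2* and *HIS5*, were not examined. In wild type with both promoters at 12 h the neighbours of *LEU1* were *MPO1* at 1.98 and *PMA1* at -3.70, and those of *BAT1* were *SET5* at 1.46 and *CRG1* at 0.91. Those of *SER33* were *RPN2* at 0.20 and *SPO22* at 2.80, and those of *LYS2* were *RAD16* at 2.63 and *TKL2* at -2.68. None overlaps its neighbour in the annotation. The strand setting of the counting was not given, so antisense reads cannot be told apart.

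The lowest levels at 12 h in wild type with both promoters were those of *LYS20*, *SER2* and *LYS21*. *LYS20* (YDL182W, chromosome IV, 133437 to 134723), a homocitrate synthase of the first step, was -1.06, -1.82, -2.54, -3.05, -3.46 and -3.96 in wild type with both promoters and -0.63, -0.88, -1.28, -0.93, -1.71 and -3.30 in the mutant. With endogenous promoters it stayed between -0.40 and 0.40. *SER2* reached -2.43 in wild type with both promoters at 12 h, against -0.12 in *kar4*Δ/Δ. *LYS12* reached -1.74 and -1.79 in these strains.

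Isozymes of the same step could differ in their course. Each value is relative to the same gene in the reference column, so the abundance of 2 genes cannot be compared. Counting may split reads from stretches that such genes share, so the values of each pair are uncertain to that extent. *SER3* and *SER33* encode phosphoglycerate dehydrogenases of the first step of serine synthesis. *SER3* in wild type with both promoters was -0.37, 3.15, 2.42, 2.21, 1.92 and 1.42, and *SER33* was -0.34, -0.07, 0.96, 1.72, 2.71 and 3.23, so that *SER3* peaked at 2 h and *SER33* climbed to 12 h. With endogenous promoters *SER3* was likewise ahead at 2 h, 2.33 against 0.04, and they were close at 12 h, 1.63 against 1.69.

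*LEU4* and *LEU9*, isopropylmalate synthases, differed in their fold changes from the reference. *LEU4* in wild type with Pzev-*IME1* was 0.15, 1.70, 0.77, 0.46, 0.64 and -0.59, and *LEU9* was -1.48, 2.82, 2.28, 2.50, 2.63 and 2.13. *LYS20* and *LYS21* went in the same direction with both promoters, to -3.96 and -2.26 in wild type and -3.30 and -1.77 in the mutant. *ARO3* and *ARO4*, which make the first intermediate of aromatic synthesis under feedback from phenylalanine and tyrosine respectively, were 3.09 and 2.64 at 2 h in wild type with Pzev-*IME1*. They started apart there, at -0.17 and -1.95.

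**Figure D5:**
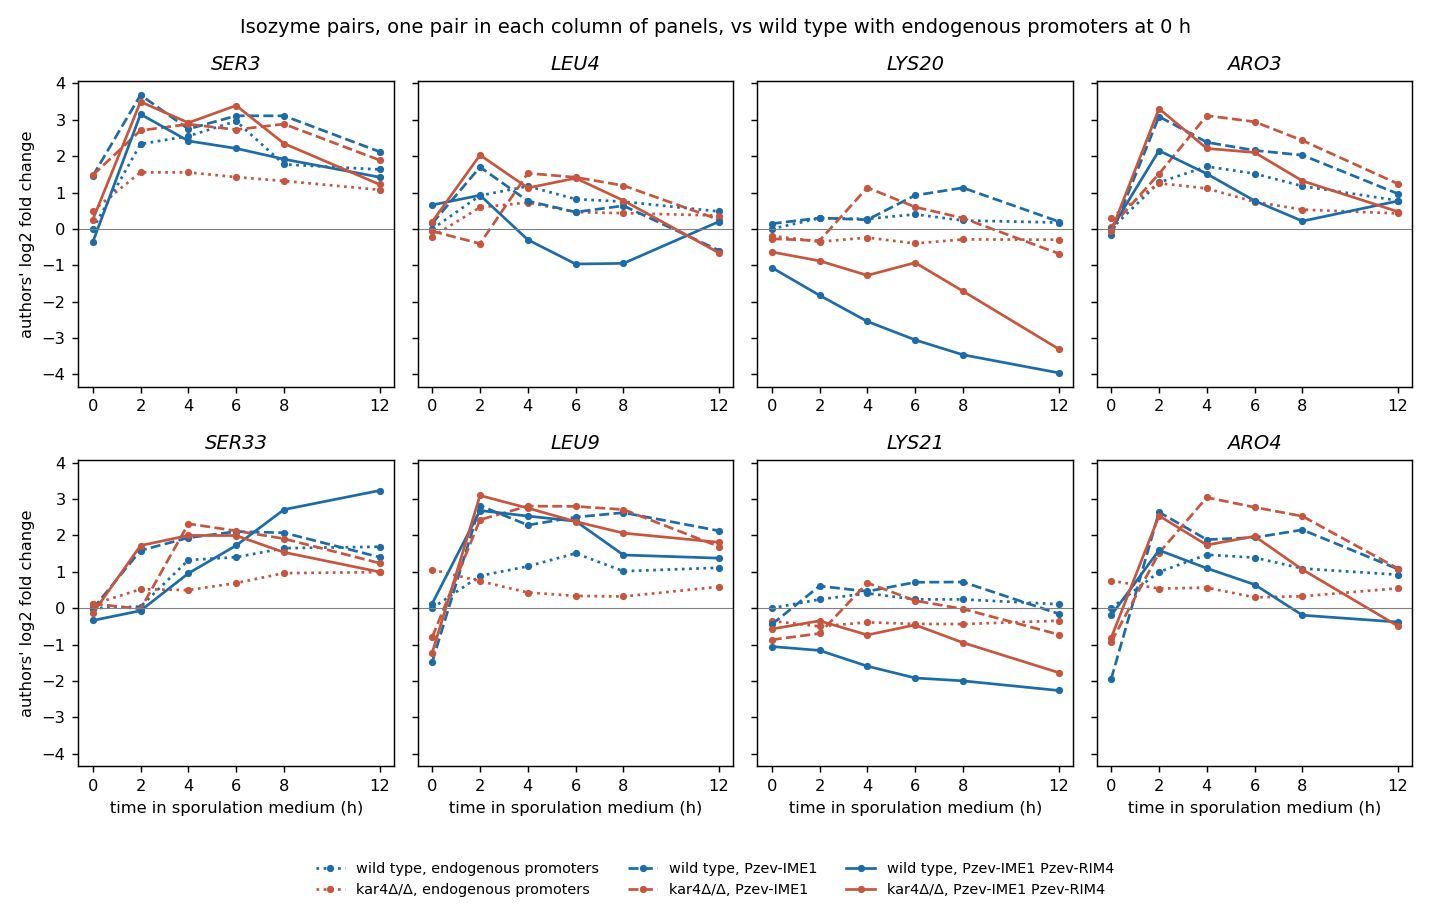
Authors' log2 fold change of 4 isozyme pairs (each column of panels holds a pair) by hours in sporulation medium, for wild type (blue) and *kar4*Δ/Δ (orange) with endogenous promoters (dotted), Pzev-*IME1* (dashed) and both Pzev promoters (solid). In wild type with both promoters *SER3* goes from 3.15 at 2 h to 1.42 at 12 h while *SER33* goes from -0.07 to 3.23, and *LYS20* and *LYS21* both decline.

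The induced strains were also compared with those with endogenous promoters, at 12 h and at the time with the highest count. At 2 h, which gave that count in wild type, 27 of the 54 genes passed 2-fold higher in wild type with Pzev-*IME1* than with endogenous promoters (7.22% of all genes), with *ARG1* at 2.65, *LEU9* at 1.93 and *HIS1* at 1.87. For *kar4*Δ/Δ the highest count was at 4 h, when 39 were higher (8.57% of all genes), all 7 lysine genes among them and *LYS1* at 3.06 highest. After quantile normalization these counts were 17 and 24.

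At 12 h 5 genes were higher and 4 lower in wild type (10.8% and 8.37% of all genes). The highest were *ARG1* at 2.33 (-0.21 after quantile normalization), *ARO7* at 1.21 and *ARG56* at 1.13, and the 4 lower were the branched-chain genes *ILV5* at -1.51, *BAT1* at -1.13, *LEU4* at -1.07 and *ILV3* at -1.03. In *kar4*Δ/Δ 3 were higher and none lower (7.47% and 5.34%), namely *LEU1* at 1.47, *ARO7* at 1.34 and *LEU9* at 1.10. *ILV5*, *ARO1* and *LYS20* were lowest, at -0.76, -0.49 and -0.38.

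Strains with both promoters were compared with those with Pzev-*IME1* alone in the same way. In the mutant at 2 h the strain with both promoters exceeded that with Pzev-*IME1* alone in 25 genes (7.47% of all genes), led by *ARG4* at 2.58, *HIS4* at 2.50 and *LEU4* at 2.44. At 4, 6 and 8 h the direction turned, and 13, 3 and 14 genes were lower (6.70%, 5.62% and 6.87% of all genes). Higher were 2, 2 and 0 genes (5.73%, 3.83% and 3.82% of all genes), and the medians were -0.55, -0.37 and -0.61. At 12 h 7 were higher and 23 lower in wild type (24.0% and 20.3% of all genes), from *LEU1* at 4.83, *BAT1* at 3.94 and *LYS2* at 2.50 to *SER2* at -2.97, *LYS20* at -4.16 and *ARG1* at -5.30. In *kar4*Δ/Δ 3 were higher and 15 lower (6.23% and 9.13%), from *LEU1* at 2.92, *ARG3* at 1.23 and *GLT1* at 1.09 down to *HIS4* at -1.90, *HOM2* at -1.97 and *LYS20* at -2.62.

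Other genes of these pathways behaved in a mixed way. Of 19 further genes for amino acid synthesis or interconversion with a value in every column, 9 rose and 3 fell between 0 and 2 h in wild type with Pzev-*IME1* (23.6% and 12.3% of all genes). *HIS3*, an enzyme of the histidine pathway and a marker locus, was 2.87 and the asparagine synthetase gene *ASN1* 2.88 at 2 h there. *ARO9*, a transaminase of aromatic amino acid breakdown, went the other way and was between -3.33 and -2.57 from 2 h on in wild type with endogenous promoters. In wild type with both promoters at 12 h, the glutamine synthetase gene *GLN1* was 3.65 and *TYR1*, prephenate dehydrogenase, 3.58, whereas the glutamate dehydrogenase isozyme gene *GDH3* was -3.78 and *SHM2*, a serine hydroxymethyltransferase, -3.55. In the genotype comparison with both promoters at 12 h, 4 of the 19 were higher and 5 lower in the mutant, near the 17.9% and 25.2% of all genes.

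Of 9 general control genes, which include the kinase gene *GCN2* and subunits of the factor that recycles eIF2, 3 rose and none fell by 2 h in wild type with Pzev-*IME1* (23.6% and 12.3% of all genes), from 0 h levels of 0.26 or lower. *PCL5*, a cyclin that promotes Gcn4p breakdown, reached the highest level of them, 2.71. In the mutant *PCL5* was 1.04 at 2 h and 3.20 at 4 h, so it too was higher at the later time. *GCN2* stayed between -1.10 and 0.16 in all columns. Of 9 pathway regulators, 4 rose and 1 fell by 2 h in wild type with Pzev-*IME1*, and 4 rose and none fell from 0 to 12 h in wild type with both promoters (26.6% and 21.3% of all genes). *LEU3* was 1.88 and *PHO2*, which acts with Bas1p on histidine and purine genes, 2.42 at 12 h, whereas in the mutant *LEU3* was 0.13 and *PHO2* 0.91. *LYS14* lay between -0.25 and 0.91 throughout.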

How the data were processed

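The authors aligned reads to sacCer3 (BWA-MEM), counted reads per gene (htseq-count) and ran DESeq2, all on Galaxy. Tool versions, strand setting and any shrinkage are not given in the sources used here. In the deposited table are the authors' log2 fold changes for 36 conditions relative to the 0 h wild type with endogenous promoters, with 2 replicates combined, so depth, errors and tests are not to be had. The 164 genes without a value in some column and 16 columns without a name were left out.

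Differences were taken by subtraction and counted from 2-fold. The linear models planned for values per library could not be run. Quantile normalization of the columns, centring on column medians, leaving out *LYS2*, and genes with a value in both columns were the alternatives; a longer promoter window and another 0 h column were added after seeing the data. The members, gene lists and rules were chosen with earlier results of these data known. Genes named are *GCN4*, the 3 highest and 3 lowest differences of each comparison at 4 or 12 h, isozyme pairs, *LYS2*, the 1 to 3 members of each pathway with the widest range, and other pathway genes past 2-fold. The members named at 2, 4, 6 and 8 h outside that rule, and the genes shown with sequences, were chosen after their values were seen. All 54 identifiers, and 5986 of 6660 in the table, matched locus tags of the R64 annotation (NCBI RefSeq), from which coordinates and upstream sequences were read, in place of the promoter table first planned. Counting was tested on simulated data. The tools were matplotlib 3.10.9, pandas 2.3.3, numpy 2.4.6 and Python 3.11.15. Values of 1 member, which is included in all counts and medians, are not reported here.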

Additional observations from a re-analysis of the deposited data

Results flagged for a closer look

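The genotype difference at 2 h had opposite signs in the 2 induced backgrounds. The median over the 54 genes of *kar4*Δ/Δ minus wild type came to -0.88 in the Pzev-*IME1* strains and to 0.95 where *RIM4* was induced as well. The 3 genes furthest apart among those past 2-fold in both were *HIS4* (-2.61 and 2.28), *ARG4* (-2.53 and 1.56) and *ARG7* (-2.30 and 1.17). Each condition is a single combined value, so this difference between backgrounds was not tested. With both promoters *HIS4* already differed by 2.11 at 0 h.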

How the results depend on the processing

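No paired analysis was possible because the deposited columns combine the replicates, and for the same reason no replicate could be left out. Centring the columns on their medians, leaving out *LYS2* and using genes with a value in both columns could hardly move the 48 counts of members, since the medians are near 0 and all members have every value, so they say nothing about stability. Quantile normalization, which removes differences in spread between all columns except the reference, moved 24 of the 48. The reference column is 0 for every gene and was left so, and counts against it set a rescaled column beside an unscaled one. These are the counts from 0 h in wild type with endogenous promoters. The count for Pzev-*IME1* against endogenous promoters at 0 h in wild type is another. The cause of each single move was not tested.

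With it, the members higher at 2 h than 0 h in *kar4*Δ/Δ with endogenous promoters went from 11 to 19. The 12 h against 0 h counts became 26 higher in wild type and 5 lower in *kar4*Δ/Δ with endogenous promoters, 1 and 2 lower with Pzev-*IME1*, and 3 and 3 lower with both promoters, where 1 member was higher at 12 h than 2 h in wild type. The 1 member lower at 12 h in *kar4*Δ/Δ with endogenous promoters became 0 with wild type at 0 h as the start, an alternative chosen after seeing the data. For *kar4*Δ/Δ against wild type the quantile counts were 1 higher and 10 lower at 4 h and 18 lower at 6 h with endogenous promoters, 0 lower at 12 h with Pzev-*IME1*, and 17 higher at 8 h and 3 lower at 12 h with both. For Pzev-*IME1* against endogenous promoters they were 10 lower at 0 h, 17 higher at 2 h, 0 higher and 12 lower at 12 h in wild type, and 24 higher at 4 h, 1 higher and 7 lower at 12 h in *kar4*Δ/Δ. For both promoters against Pzev-*IME1* at 12 h they were 3 higher in wild type, and 1 higher and 9 lower in *kar4*Δ/Δ.

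Of the 204 values of single genes, 3 changed sign under quantile normalization and 36 others moved. *LEU1* in wild type with both promoters went to -0.041 from 2 to 12 h and to -0.53 from 0 to 12 h, and *ARG1* went to -0.21 for Pzev-*IME1* against endogenous promoters at 12 h in wild type. Without replicate errors or depth, the size of a difference that these data could resolve is unknown.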
